A study of Mus musculus with 6 samples.

Results

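Astrocytes of mouse cerebral cortex were followed through 10 genes of their transport and identity. They were the glutamate transporter genes Slc1a2 and Slc1a3, the water channel gene Aqp4, the glutamine synthetase gene Glul, the folate enzyme gene Aldh1l1, the connexin genes Gja1 and Gjb6, the transcription factor gene Sox9, the potassium channel gene Kcnj10 and the aldolase gene Aldoc. They were chosen by gene symbol among the 47728 genes of the deposited count table, and all 10 were found and passed the filter on low counts, with 17074 genes tested in all. Bulk RNA of cortex was sequenced in 3 libraries from FAD5x mice, a transgenic Alzheimer model with mutant human disease genes, and in 3 Control libraries from C57BL/6 mice. In such mice a Thy1 promoter cassette directs the transgenes to neurons. The labels give neither age nor sex, nor whether each library came from its own animal, so the p-values rest on library-to-library spread alone, part of which may be technical. The deposited columns of FAD5x replicates 1 and 2 are named AD_2 and AD_2_B, and whether both came from 1 animal is not given, so the 3 FAD5x libraries may stand for fewer than 3 animals. Their counts differed beyond counting noise (chi-square over degrees of freedom 56.8, where replicate 3 gave 36.9 with replicate 1 and 53.6 with replicate 2), and both were kept.

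Astrocytes clear the transmitter glutamate from the synaptic cleft through the transporters GLT-1 (Slc1a2) and GLAST (Slc1a3), turn it into glutamine with glutamine synthetase (Glul) and hand the glutamine back to neurons. Their endfeet on blood vessels carry the water channel aquaporin-4 (Aqp4) and the inward rectifier Kir4.1 (Kcnj10), which takes up potassium released by active neurons. Connexin 43 (Gja1) and connexin 30 (Gjb6) join astrocytes into a network through gap junctions. Sox9 is a transcription factor of astrocyte fate, and Aldh1l1, an enzyme of folate metabolism, and Aldoc, the brain form of the glycolytic enzyme aldolase, are used to mark these cells. In disease, astrocytes can become reactive and raise the filament gene Gfap.

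Total counts were 17363946 to 24137936 per library. Thy1, whose promoter cassette drives the transgenes, was 3.08-fold higher in FAD5x (edgeR quasi-likelihood test, adjusted p = 0.0456), with 1476, 702 and 1749.7 CPM (read counts scaled for library size) in FAD5x replicates 1, 2 and 3, respectively, against 345, 398 and 532 CPM in the Control replicates. The libraries were not uniform. FAD5x replicate 2 had 129 CPM of Gfap, inside the Control range of 119 to 193 CPM, whereas the other FAD5x libraries had 1508 and 914 CPM. FAD5x replicate 1 had a summed level of 1442 CPM over 8 markers of striatal neurons, against 160 to 264 CPM in the other 5 libraries. Control replicate 1 had 3124 counts in Y-linked genes, and the other 5 libraries had at most 9. For Xist, a transcript of female cells, it had 3 counts, and the other 5 libraries had 10346 to 22631. By these counts Control replicate 1 was male and the other 5 libraries were female, so sex was not balanced between the groups. The part of sex in the results was not tested. In bulk tissue, fewer astrocytes and less of a transcript per astrocyte cannot be told apart.

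The counts of the 10 genes were deep, and genes with near-identical or overlapping transcripts had low counts. The lowest count of any of them in any library was 398, for Sox9, where counting error alone is 5.01% of the value, and the highest was 79507, for Slc1a2. All 10 defining transcripts were thus present in all 6 libraries. Of other genes in the count table with a near-identical transcript, at an identity of at least 95% over at least 50% of the shorter transcript, none counted above 7, and 1 more pseudogene copy of Glul was not analysed here. The processed pseudogene Glns-ps1, a copy of Glul, had 0 to 7 counts, whereas Glul had at least 19737. Among genes with exons that overlap those of a member, the highest count was 82, for Teddm2, which overlaps Glul on the opposite strand.

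Levels of different genes were compared per kilobase of exon. In Control cortex Glul stood highest with 430 ± 66.7 CPM per kb (SD, n = 3), followed by Slc1a2 with 246 ± 56.7, Aldoc with 190 ± 32.6 and Slc1a3 with 91.6 ± 24.3 CPM per kb. Kcnj10 followed with 49.0 ± 7.83, Aqp4 with 25.3 ± 3.86, Gja1 with 21.4 ± 4.13, Gjb6 with 20.2 ± 4.38, Aldh1l1 with 13.5 ± 1.47 and Sox9 with 7.24 ± 2.30 CPM per kb. The ranges of neighbours in this order did not overlap between Glul and Slc1a2, Aldoc and Slc1a3, Slc1a3 and Kcnj10, Kcnj10 and Aqp4, Gjb6 and Aldh1l1, or Aldh1l1 and Sox9. Slc1a2 and Aldoc, Aqp4 and Gja1, and Gja1 and Gjb6 overlapped and have no fixed order. In FAD5x cortex the order by mean level was the same except that Aldoc (240 ± 29.5 CPM per kb) stood above Slc1a2 (197 ± 65.8 CPM per kb). Slc1a2 exceeded Aldoc in 4 of 6 libraries, while Glul exceeded Slc1a2 in all 6.

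**Figure D1:**
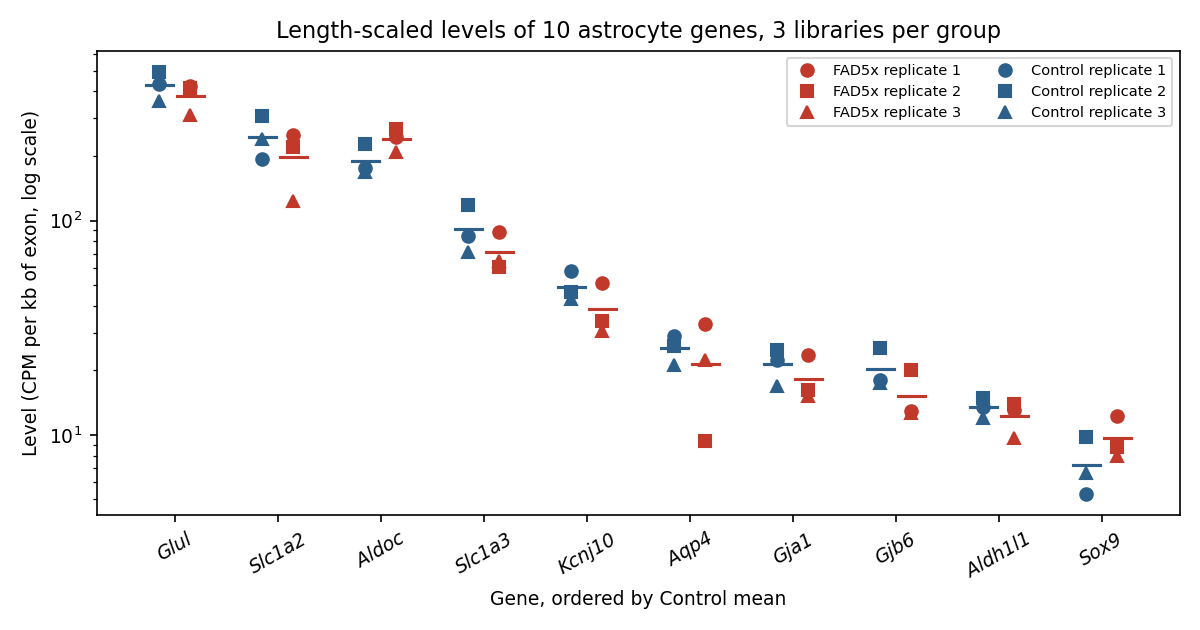
Level of each gene in CPM per kb of exon (log scale) in each of the 6 libraries, with the mean of each group as a bar. Glul is highest and Sox9 lowest in the mean of both groups, and the FAD5x and Control points overlap for every gene.

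The start regions of Glul, Slc1a2 and Aldoc are shown because these 3 genes had the highest levels per kilobase. Each is the 250 bases before a start site in RefSeq, build GRCm38.p6, on the plus strand: chr1:153899679-153899928 for Glul, chr2:102706188-102706437 for Slc1a2 and chr11:78322823-78323072 for Aldoc, the first of 2 start sites given for that gene. Capitals mark the half-site of nuclear factor I, TTGGC or GCCAA, a family of factors known for its part in astrocyte development, and the GC box, GGGCGG or CCGCCC.
Glul: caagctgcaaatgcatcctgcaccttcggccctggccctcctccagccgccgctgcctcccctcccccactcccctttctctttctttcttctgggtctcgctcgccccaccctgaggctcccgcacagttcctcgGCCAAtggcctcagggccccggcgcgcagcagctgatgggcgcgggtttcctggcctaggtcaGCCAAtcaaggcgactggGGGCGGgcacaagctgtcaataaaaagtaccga
Slc1a2: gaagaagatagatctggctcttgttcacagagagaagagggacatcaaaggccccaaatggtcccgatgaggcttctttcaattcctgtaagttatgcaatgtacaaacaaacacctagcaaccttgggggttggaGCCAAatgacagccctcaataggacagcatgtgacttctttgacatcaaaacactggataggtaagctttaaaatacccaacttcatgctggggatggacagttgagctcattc
Aldoc: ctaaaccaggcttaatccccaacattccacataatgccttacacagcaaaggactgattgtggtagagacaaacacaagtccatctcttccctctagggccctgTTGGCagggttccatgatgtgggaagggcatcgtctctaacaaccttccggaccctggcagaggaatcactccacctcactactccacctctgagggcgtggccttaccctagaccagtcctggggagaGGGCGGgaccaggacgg
Glul held 2 half-sites and 1 GC box, Slc1a2 1 half-site and no GC box, and Aldoc 1 of each, with both strands searched and no overlap between motifs. Over all 32851 RefSeq windows of this length, 41.5% held the half-site and 32.7% the GC box. Of 9 windows read for 8 of the 10 genes, 4 held the half-site and 5 the GC box. Windows on 1 chromosome were left out for the 10 genes but kept among the 32851, so the sets are unlike. The counts measure transcripts and not promoter activity, and a match describes letters only.

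The comparison asked whether these genes differ between FAD5x and Control cortex. None of the 10 was called: 0 rose and 0 fell at an adjusted p below 0.05 (edgeR quasi-likelihood test over all 17074 genes), 0 had an unadjusted p below 0.05, and limma-voom and DESeq2 called 0 as well. Over all genes tested, 3.15% were called, 1.76% higher and 1.39% lower, and 21.3% had an unadjusted p below 0.05. By DESeq2 8.7% of all genes were called, and by limma-voom 2.76%. In none of the 10 did the FAD5x libraries all lie on one side of the Control libraries, as they did in 27.4% of all genes tested, 14.1% higher and 13.2% lower. The fitted log2 fold changes, FAD5x over Control, ran from -0.41 to 0.42 with a median of -0.23, beside a median of 0.02 for all genes tested. They were below 0 for 8 genes and above 0 for Sox9 and Aldoc. With 10 genes these shares describe the list and do not set it apart from other genes.

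A value that misses the threshold does not show equal levels, and the 95% intervals give what the libraries allow. For Aldh1l1, the narrowest, the interval ran from a fold of 0.703 to 1.17, and for Glul from 0.654 to 1.21. For Aqp4, the widest, it ran from 0.449 to 1.61. Doubling in FAD5x lay outside the interval of each of the 10 genes, with Sox9 nearest to it at an upper limit of 1.99-fold, whereas halving lay outside the intervals of 9 genes and inside that of Aqp4.

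**Figure D2:**
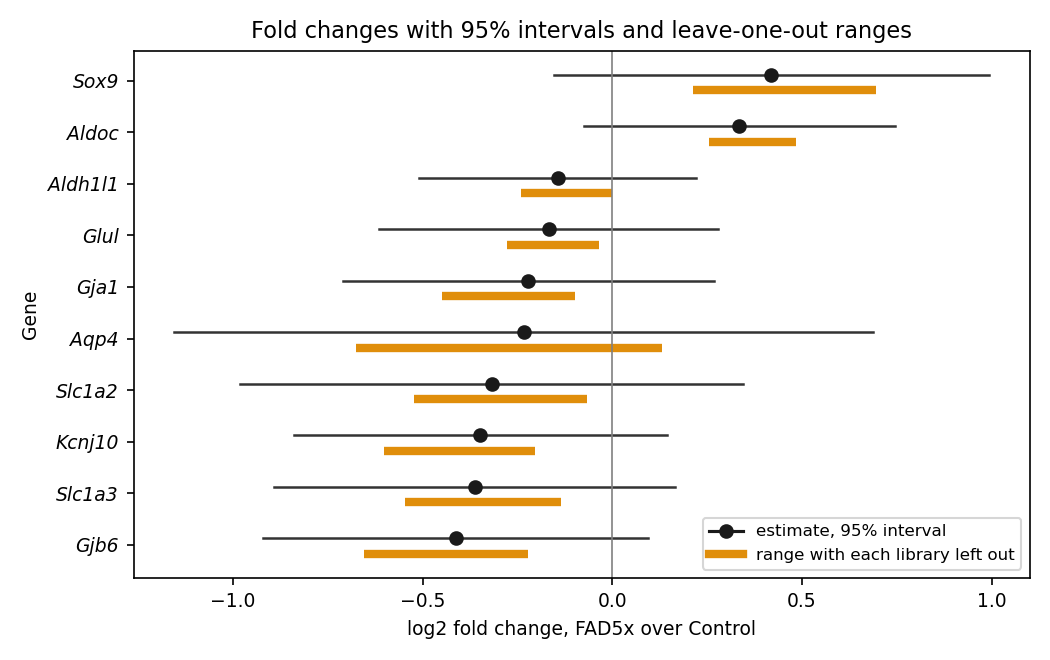
Log2 fold change of each gene, FAD5x over Control, with its 95% interval (black) and the range of estimates when each of the 6 libraries is left out in turn (orange). All 10 intervals include 0, and the leave-one-out range crosses 0 for Aqp4 alone.

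Among the genes of glutamate clearance, Slc1a2, the main glutamate transporter of the forebrain, measured 3277, 2881 and 1622 CPM in FAD5x replicates 1, 2 and 3, respectively, against 2536, 4018 and 3149.5 CPM in the Control replicates. FAD5x replicate 3 lay below the Control range and the other FAD5x libraries inside it. Its log2 fold change was -0.32 ± 0.29 SE (adjusted p = 0.576, edgeR) and was -0.07 without FAD5x replicate 3. Slc1a3, the transporter first expressed in radial glia and kept in astrocytes, measured 755, 516 and 554 CPM in the FAD5x libraries against 724, 1013 and 610.0 CPM in the Control libraries. FAD5x replicates 2 and 3 lay below the Control range, and the log2 fold change was -0.36 ± 0.23 (adjusted p = 0.417). Glul, the enzyme that makes glutamine from glutamate, measured 1409, 1373 and 1031 CPM in the FAD5x libraries against 1442, 1642 and 1199 CPM in the Control libraries. Only FAD5x replicate 3 lay below the Control range, and the log2 fold change was -0.17 ± 0.20 (adjusted p = 0.671).

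The balance of the 2 transporter genes within a library does not depend on scaling between libraries. The log2 ratio of Slc1a2 to Slc1a3 counts was 2.12, 2.48 and 1.55 in FAD5x and 1.81, 1.99 and 2.37 in Control. The means of 2.05 ± 0.47 and 2.06 ± 0.29 (SD, n = 3) were not separated (exact permutation test, two-sided, p = 1, where 0.1 is the smallest p that 3 against 3 libraries can give). Among 14 other genes of the glutamate and glutamine cycle 0 were called by edgeR, with 0 higher and 4 lower at an unadjusted p below 0.05, 2 lower by DESeq2 and 0 by limma-voom. The median log2 fold change of that list was -0.12. Slc17a7, the vesicular glutamate transporter of cortical neurons, had a log2 fold change, FAD5x over Control, of 0.02 ± 0.23 (adjusted p = 0.969).

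Of the endfoot channel genes, Aqp4 varied most between libraries of 1 group. It measured 205, 58.4 and 139 CPM in FAD5x replicates 1, 2 and 3, respectively, against 180, 161 and 132 CPM in the Control replicates. FAD5x replicate 1 was the highest and FAD5x replicate 2 the lowest of all 6, a 3.51-fold range within FAD5x, against 1.36-fold within Control. The log2 fold change was -0.23 ± 0.40 (adjusted p = 0.782, edgeR), and it turned to 0.13 without FAD5x replicate 2 (adjusted p = 0.738), the library with Gfap inside the Control range. It was 0.23 when Control replicate 1 was left out as well.

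Kcnj10, the potassium channel gene, measured 275, 184 and 165 CPM in the FAD5x libraries against 313, 249.7 and 232 CPM in the Control libraries. FAD5x replicates 2 and 3 lay below the Control range and FAD5x replicate 1 inside it. The log2 fold change was -0.35 ± 0.22 (adjusted p = 0.405), and without FAD5x replicate 1 it was -0.60 (adjusted p = 0.15). Among 11 other genes for potassium, bicarbonate and GABA transport by astrocytes 0 were called by edgeR, with 1 higher and 2 lower at an unadjusted p below 0.05, 2 lower by DESeq2 and 0 by limma-voom.

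The dystrophin complex anchors aquaporin-4 and Kir4.1 at the endfoot. Of 15 genes of this complex and of the endfoot membrane 0 rose and 1 fell by edgeR. At an unadjusted p below 0.05, 0 were higher and 5 lower, DESeq2 called 3 lower, and limma-voom called 1 lower. Sntb1, a syntrophin subunit, fell by 2.66 on the log2 scale (SE 0.40, adjusted p = 0.0147, edgeR) from 14.1, 5.84 and 6.04 CPM in Control to 1.48, 1.21 and 1.41 CPM in FAD5x. Its call ended without FAD5x replicate 1 (adjusted p = 0.0553) and held without each of the other 5 libraries. The list median of 0.02 turned below 0 without any one library except FAD5x replicate 3 (-0.12 to -0.01).

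The connexin genes of astrocytes had lower means in FAD5x with overlapping libraries. Gja1 measured 243, 166 and 156 CPM in the FAD5x libraries against 229, 256 and 173 CPM in the Control libraries, with FAD5x replicates 2 and 3 below the Control range. Its log2 fold change was -0.22 ± 0.21 (adjusted p = 0.601, edgeR). Gjb6 measured 34.4, 53.5 and 33.9 CPM in the FAD5x libraries against 47.9, 67.6 and 46.7 CPM in the Control libraries. Here FAD5x replicates 1 and 3 lay below the Control range and FAD5x replicate 2 inside it. The log2 fold change of -0.41 ± 0.22 was the lowest of the 10 genes (adjusted p = 0.329), and without FAD5x replicate 2 it was -0.66 (adjusted p = 0.0709), the smallest adjusted p of any of the 10 genes under any setting tried.

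Which FAD5x libraries were low thus differed between both connexins. The log2 ratio of Gja1 to Gjb6 counts was 2.82, 1.63 and 2.20 in FAD5x and 2.26, 1.92 and 1.89 in Control, a difference in means of 0.19 (exact permutation test, two-sided, p = 0.7). Of 8 other connexin genes 1 rose and 2 fell by edgeR, and limma-voom called 1 higher and 1 lower. Gjb1, the connexin 32 gene of oligodendrocytes, rose 2.82-fold (log2 1.5 ± 0.29, adjusted p = 0.0347), with 19.4, 10.5 and 13.3 CPM in the FAD5x libraries against 3.80, 4.83 and 6.71 CPM in the Control libraries. Gja5, a connexin of arterial endothelium, was 3.99-fold lower (adjusted p = 0.0409). Its levels were very low, with 0.783, 0.436 and 0.366 CPM in the FAD5x libraries against 2.31, 1.91 and 2.24 CPM in the Control libraries. Gjd2, the connexin 36 gene of electrical synapses between neurons, was 3.19-fold lower (adjusted p = 0.0489). It measured 3.05, 4.80 and 6.22 CPM in the FAD5x libraries against 21.7, 13.5 and 9.62 CPM in the Control libraries. The call of Gja5 ended without any one library (adjusted p = 0.0529 to 0.167). That of Gjb1 ended without FAD5x replicate 1 (0.0868) or Control replicate 1, 2 or 3 (0.135, 0.139 and 0.0558), and that of Gjd2 without any one library except FAD5x replicate 3 (0.0569 to 0.165). The Gjd2 call also ended with limma-voom (0.0586), library totals (0.0627), upper-quartile scaling (0.0541) and protein-coding genes only (0.0543). Markers of mature oligodendrocytes moved with Gjb1: their summed level was 7711, 3961 and 5167 CPM in the FAD5x libraries against 2836, 3281 and 4180 CPM in the Control libraries, and their part in the Gjb1 result was not tested.

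Of the enzyme genes, Aldh1l1 measured 58.8, 62.7 and 43.8 CPM in the FAD5x libraries against 61.2, 67.4 and 54.2 CPM in the Control libraries, with only FAD5x replicate 3 below the Control range. Its log2 fold change of -0.14 ± 0.16 (adjusted p = 0.653, edgeR) was the closest to 0 of the 10 genes. Aldoc measured 798, 871 and 680.3 CPM in the FAD5x libraries against 573, 743 and 547 CPM in the Control libraries. FAD5x replicates 1 and 2 lay above the Control range and FAD5x replicate 3 inside it. The log2 fold change was 0.34 ± 0.18 (adjusted p = 0.328), and its unadjusted p of 0.0962 was the smallest of the 10 genes.

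Aldoa, the aldolase gene used by most tissues, stood higher in all FAD5x libraries (1223, 1636 and 1300 CPM) than in all Control libraries (970.5, 984.9 and 1126 CPM), and its log2 fold change, 0.43 ± 0.18, missed the threshold (adjusted p = 0.205). The share of Aldoc in the sum of both aldolase counts was 39.5%, 34.8% and 34.4% in FAD5x and 37.1%, 43.0% and 32.7% in Control. The means of 36.2% ± 2.86 and 37.6% ± 5.18 (SD, n = 3) were not separated by the exact permutation test (two-sided, p = 0.7). Among 18 other genes of folate and carbohydrate metabolism 0 were called by edgeR, with 4 higher and 2 lower at an unadjusted p below 0.05, and 0 were called by DESeq2 or limma-voom. Ldhb, a lactate dehydrogenase subunit in that list, had a log2 fold change, FAD5x over Control, of 0.11 ± 0.15 (adjusted p = 0.725).

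Sox9, the transcription factor gene, measured 50.7, 36.4 and 33.0 CPM in FAD5x replicates 1, 2 and 3, respectively, against 21.9, 40.5 and 27.5 CPM in the Control replicates. FAD5x replicate 1 lay above the Control range and the others inside it, and Control replicate 1 was the lowest of all. The log2 fold change of 0.42 ± 0.25 was the highest of the 10 genes (adjusted p = 0.385, edgeR), and it was 0.70 without Control replicate 2 and 0.21 without FAD5x replicate 1. Among 14 other regulators of astrocyte identity 0 were called by edgeR, with 1 higher and 1 lower at an unadjusted p below 0.05, and 0 by DESeq2 or limma-voom. Nfix, a nuclear factor I gene, had a log2 fold change, FAD5x over Control, of 0.02 ± 0.23 (adjusted p = 0.973). Zbtb20, a zinc finger factor of astrocytes, measured 165, 48.5 and 95.5 CPM in FAD5x, and as with Aqp4 the lowest of all 6 libraries was FAD5x replicate 2.

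The group label did not separate the libraries fully for any of the 10 genes, but Control libraries were more often highest and FAD5x libraries more often lowest. Control replicate 2 was the highest library for 6 of the 10 genes, namely Slc1a2, Slc1a3, Glul, Aldh1l1, Gja1 and Gjb6. Control replicate 1 was the highest for 1, FAD5x replicate 1 for 2 and FAD5x replicate 2 for 1. FAD5x replicate 3 was the lowest for 6, namely Slc1a2, Glul, Aldh1l1, Gja1, Gjb6 and Kcnj10. FAD5x replicate 2 was the lowest for 2, Control replicate 1 for 1 and Control replicate 3 for 1. In FAD5x replicate 3, 7 of the 10 genes lay below the Control range and 3 inside it. In FAD5x replicate 2, 4 lay below, 5 inside and 1 above, and in FAD5x replicate 1, 1 lay below, 6 inside and 3 above. The share of all tested genes outside the Control range was not computed for single libraries. These counts thus describe the 10 genes and do not set them apart from other genes. Together the 10 genes made up 0.711%, 0.620% and 0.446% of the scaled counts in the FAD5x libraries, by replicate, against 0.613%, 0.826% and 0.617% in the Control libraries. The coefficient of variation was wider in FAD5x than in Control for 7 of the 10 genes, from 12.3% for Aldoc to 54.6% for Aqp4 in FAD5x and from 10.9% for Aldh1l1 to 31.8% for Sox9 in Control.

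**Figure D3:**
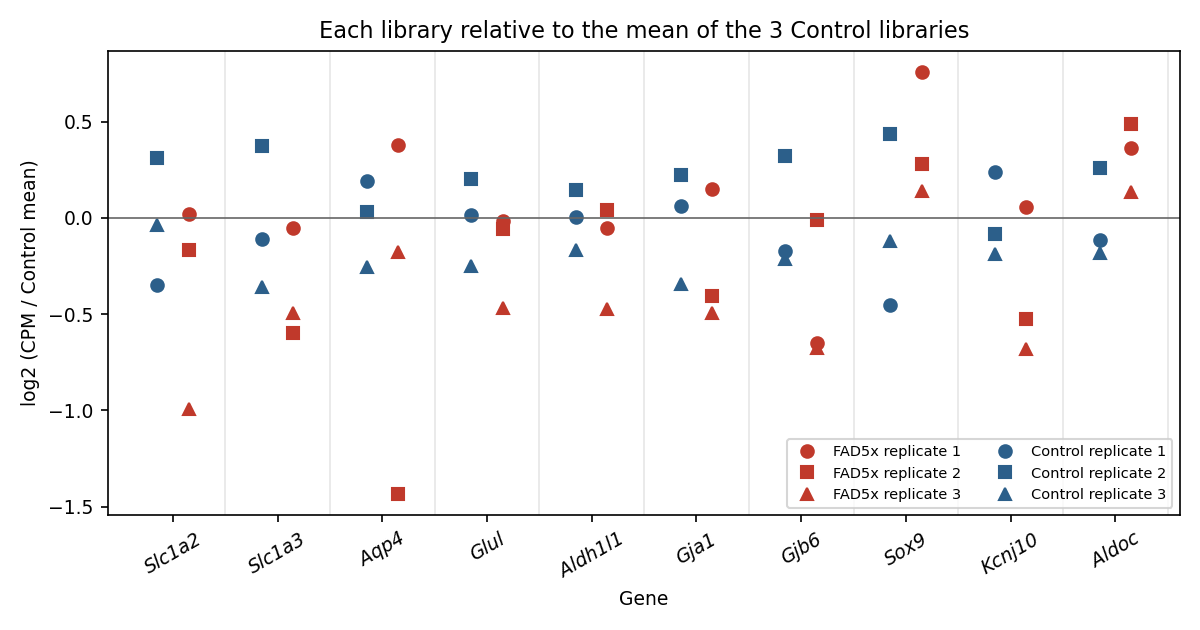
Log2 of each library's CPM over the mean of the 3 Control libraries, for the 10 genes. FAD5x replicate 3 (red triangles) lies below 0 except for Sox9 and Aldoc, and FAD5x replicate 2 (red squares) drops to -1.43 for Aqp4.

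The genes whose profile over the 6 libraries came closest to the mean profile of the 10 were Zmpste24, a zinc metalloprotease that processes prelamin A, Sfxn5, a sideroflexin of mitochondria, and Gm15879, a predicted gene. Their root mean square difference from that profile was 0.0575, 0.0625 and 0.0690 on the log2 scale. Sfxn5 measured 186, 143 and 138 CPM in the FAD5x libraries against 159, 215 and 144 CPM in the Control libraries, again with Control replicate 2 highest and FAD5x replicate 3 lowest. With 6 libraries and 17074 genes such closeness is a description.

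Further astrocyte lists stood beside the 10 genes. Of 30 other astrocyte-enriched genes 0 were called by edgeR, with 6 higher and 3 lower at an unadjusted p below 0.05, 3 higher and 3 lower by DESeq2 and 0 by limma-voom, and the list median was -0.01, with -0.08 to 0.15 when each library was left out. Sparcl1, a secreted matrix protein of astrocytes, had a log2 fold change, FAD5x over Control, of 0.01 ± 0.19 (adjusted p = 0.987). Cst3, cystatin C, had 0.62 ± 0.21 (adjusted p = 0.15), with all FAD5x libraries (1132, 856 and 1004 CPM) above all Control libraries (585, 840 and 526 CPM). Of 17 tested reactive astrocyte genes 4 rose and 0 fell by edgeR. The list median was 0.46, and 11 of the 17 had a log2 fold change above 0. Gfap was not called by edgeR, with a log2 fold change of 2.41 (adjusted p = 0.168). At an unadjusted p below 0.05, 8 were higher and 0 lower, DESeq2 called 6 higher and 0 lower, and limma-voom called 4 higher and 0 lower. Serpina3n, a protease inhibitor, rose 5.77-fold (adjusted p = 0.0146), Aspg, an asparaginase, 3.73-fold (0.0222), S100a6, a calcium-binding protein, 2.31-fold (0.0275) and Lgals1, galectin-1, 1.82-fold (0.0449, and 0.0773 with library totals). With any one Control library left out edgeR called 0 reactive genes, with 5 or 6 higher at an unadjusted p below 0.05. Leaving out FAD5x replicate 1 gave 1, and leaving out replicate 2 or 3 of FAD5x gave 8 or 3. Whether the reactive list and the 10 genes differ in response was not tested. In FAD5x replicate 1, with 1508 CPM of Gfap, 6 of the 10 genes were inside the Control range. In FAD5x replicate 3, with 914 CPM of Gfap, 3 were inside it and 7 below it.

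Marker lists of other cell types moved between the libraries too. The median log2 fold change was 0.67 over 10 markers of mature oligodendrocytes (0.35 without FAD5x replicate 1), with Ermn 2.97-fold and Mobp 2.13-fold higher, and 0.81 over 10 microglial markers, with C1qa risen 4.72-fold (adjusted p = 0.00726), a call that held without any one library. The call of Ermn ended without Control replicate 1 or 2 (adjusted p = 0.0754 and 0.101), and that of Mobp without FAD5x replicate 1 (0.107) and also without each Control library in turn (0.0781 to 0.188) or with protein-coding genes only (0.0514). The median was -0.54 over 8 endothelial markers, of which 3 had a log2 fold change above 0. Of the 8, Kdr was 2.15-fold lower, a call that ended without any one Control library or FAD5x replicate 3. Over 10 neuronal markers the median was -0.08 (0.09 without FAD5x replicate 3 and 0.04 without Control replicate 3). Of these, 0 were called by edgeR, with 1 higher at an unadjusted p below 0.05, and 0 by DESeq2 or limma-voom. Summed neuronal markers ran from 7788 to 13043 CPM in FAD5x, with FAD5x replicate 2 highest, and from 8090 to 9819 CPM in Control. Their part in the levels of the 10 astrocyte genes was not tested.

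**Figure D4:**
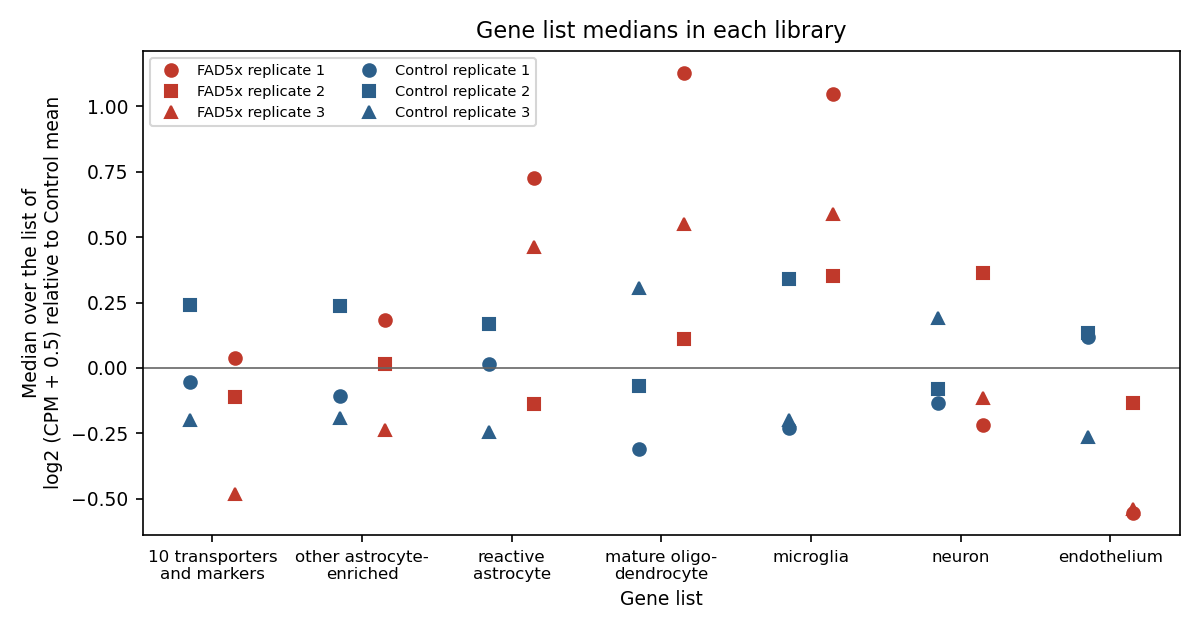
Median over each gene list of log2 (CPM + 0.5) relative to the Control mean, for each library. For the 10 transporters and markers the medians are 0.04, -0.11 and -0.48 in FAD5x replicates 1, 2 and 3 and lie among or below the Control values of -0.05, 0.24 and -0.20, while the reactive list stands at 0.73, -0.14 and 0.46 in the same FAD5x libraries.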

How the data were processed

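RNA of flash frozen cortex from 3 FAD5x and 3 Control samples was sequenced, 1 library each. The authors deposited raw counts per Ensembl gene. The submitters' processing notes list STAR 2.7.11b, cutadapt and featureCounts, besides build GRCm39, limma and edgeR 3.38.4. Their order and parameters, and whether counting used strand, are not given in the sources used here. A broken line, 1 of 47729, was dropped for a non-numeric cell. Symbols and exon lengths came from GENCODE M21 on an earlier build, matched by identifier, with 419 identifiers unmatched.

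Genes were filtered with filterByExpr, scaled by the trimmed mean of M values and tested with edgeR 4.0.16 in R 4.3.3 (quasi-likelihood F-test, robust, two-sided, Benjamini-Hochberg over 17074 genes, threshold 0.05). CPM values use the scaled totals of tested genes. The standard error is the log2 fold change over the root of F. Group labels came from the treatment label. The steps were tested on simulated counts. Alternatives covered limma-voom (limma 3.58.1), DESeq2 1.42.0, scaling, filters, a replicate block and libraries left out.

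The members and lists were chosen with earlier results of these data known. Named genes were the 10 members, up to 4 called genes per related list and 2 per marker list (with none called, the 2 or 1 with the highest level), the 3 closest profiles and Thy1. Some of these are not reported here. Gfap, Glns-ps1 and Teddm2 were chosen after their values were seen, and Xist and the Y-linked genes were read to describe the libraries.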

Additional observations from a re-analysis of the deposited data

How the results depend on the processing

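None of the 10 genes was called under any of 15 alternative settings, including each library left out in turn, and 148 of 150 fold changes kept their direction. The exceptions were both for Aqp4, whose range with each library left out was -0.676 to 0.131, with 0.131 without FAD5x replicate 2 and 0.226 when FAD5x replicate 2 and Control replicate 1 were both left out, an alternative chosen after seeing the data. The median of the 10 genes ran from -0.377 to -0.085 with each library left out. The number of the 10 genes whose groups did not overlap was 0 in the fit reported and under the 5 other scalings and filters, 0 to 3 with each library left out, and 1 with both named libraries left out. The 3 were Slc1a3, Gja1 and Kcnj10, without FAD5x replicate 1. With fewer libraries more genes separate: without FAD5x replicate 1, 37.6% of all genes did. The share over all genes was 33.4% to 41.3% with each library left out, and 51.3% with both named libraries left out.

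Of the genes in the other lists 15 were called, against 42 by DESeq2, 28 without the low-count filter, 4 with the replicate block and 3 to 24 with each library left out. The Aldoc share difference ran from -3.86 to 1.30 percentage points, the Slc1a2 to Slc1a3 log2 ratio difference from -0.221 to 0.245 and the Gja1 to Gjb6 difference from -0.107 to 0.489 with each library left out, so none of the 3 kept its direction. The cause of these moves was not tested.

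Same-numbered libraries did not deviate together (correlations of -0.05, -0.10 and -0.35 for numbers 1, 2 and 3). The numbers are those of the sample titles and differ from those in the deposited column names. With 3 libraries per group these correlations cannot show whether any libraries share a batch. Over all genes 537 were called, against 1485 by DESeq2, 1063 without the low-count filter and 81 to 989 with each library left out. With the replicate block 72 genes were called in all and 0 of the 10, with a median of -0.29. Differences of the Aldoc share and of both ratios kept their values under the block, since it averages the same libraries. With 3 libraries per group, differences inside the intervals given could not be shown.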

Other observations

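Markers of cells around the astrocytes were read in the same fit (edgeR quasi-likelihood test, Benjamini-Hochberg over all genes). Of 7 markers of meningeal fibroblasts, which cover the cortex, 0 rose and 1 fell: Col3a1, a fibrillar collagen, was 10.4-fold lower in FAD5x, a call that held without any one library. The summed level of this list was 47.9, 22.0 and 105.1 CPM in FAD5x against 212, 432 and 144 CPM in Control. Of 8 markers of oligodendrocyte precursors 0 rose and 1 fell: Gpr17, a receptor of cells that are about to become oligodendrocytes, was 3.28-fold lower, a call that ended without Control replicate 2 (adjusted p = 0.08) or Control replicate 3 (0.051). The precursor list had a median of -0.15 (-0.32 without FAD5x replicate 1 and 0.03 without FAD5x replicate 3). Of the 8 markers 3 were above 0, namely Sox10, Olig1 and Olig2, and the others, Gpr17 among them, were below 0. At an unadjusted p below 0.05, 1 precursor marker was higher and 2 were lower. Of 6 markers of Bergmann glia and hindbrain astrocytes 1 rose and 0 fell by edgeR, but the list median was -0.65. At an unadjusted p below 0.05, 1 was higher and 3 were lower, with the same 3 lower in all FAD5x libraries than in all Control libraries, and DESeq2 called 1 higher and 3 lower. The one that rose, Sept4, a septin, was 2.35-fold higher, and its call ended without Control replicate 1 (0.0718) or 2 (0.0862). The part of these cells in the levels of the 10 astrocyte genes was not tested.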
